A study of Mus musculus with 14 samples.

Results

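Actin filaments give microglia and macrophages their shape and drive their movement and phagocytosis. Tropomyosins lie along the filament and set which other proteins can bind it, capping protein closes the fast-growing end, and cyclase-associated protein recycles actin monomers together with cofilin. The genes described here were *Tpm3*, which encodes a tropomyosin, *Capza1*, which encodes an alpha subunit of capping protein, and *Cap1*, which encodes cyclase-associated protein 1, together with *Tpm3-rs7* and *Capza1-ps1*, which are retrocopies of the first and of the second. These 5 of the 33939 genes of the value table were listed by symbol, because their levels had been seen to differ between genotypes, and were found by their Ensembl identifiers. All 5 passed the filter on low values in each comparison.

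Libraries were made from CD11b+ microglia/macrophages, isolated with magnetic beads from the contralateral (CL) and ipsilateral (IL) hemispheres of C57BL/6 mice aged 8 to 12 weeks, 3 days after traumatic brain injury (TBI). Ctrl mice were Cx3cr1-CreER+/- (4 CL and 4 IL libraries), cKO mice were Cx3cr1-CreER+/-;Nhe1flox/flox (3 CL and 3 IL libraries), and both received tamoxifen. These genotypes are as the paper describes them, while the sample titles call the Ctrl mice wildtype and the cKO mice knockout. By the paper, both genotypes thus carried a Cre that is driven by *Cx3cr1*, a gene of microglia and of monocytes and macrophages. On that description there was no library without the Cre. The comparison of the genotypes asks what the conditional deletion changes in these cells after injury, and that of the hemispheres asks what the injury does.

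Depth, estimated from the step between the low values of a library, ranged from 12.2 to 41.6 M reads assigned to genes. The values are CPM, the reads of a gene relative to the library's total. All 8 microglial marker genes were detected in each group, and their summed level was 31852 to 36591 CPM in Ctrl CL, 32425 to 34676 CPM in cKO CL, 18561 to 22878 CPM in Ctrl IL and 20152 to 21832 CPM in cKO IL, so that genotypes overlapped and hemispheres did not. The neutrophil markers varied most within a group, from 544 to 7764 CPM in Ctrl CL. Between genotypes, the marker sums of oligodendrocytes (126 to 193 CPM in Ctrl and 80.8 to 113 CPM in cKO) and B cells were lower in cKO CL without overlap, and no marker sum was without overlap in IL. In bulk libraries, fewer cells of a type and less RNA per cell cannot be told apart.

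The sequences show how closely gene and copy resemble each other. In the GENCODE M21 annotation (GRCm38), *Tpm3* (ENSMUSG00000027940) lies at chr3:90072649-90100902 on the plus strand. *Tpm3-rs7* (ENSMUSG00000058126) lies at chr14:113314608-113316754 on the plus strand and is annotated as a protein-coding retrogene. The copy matched 2108 alignment columns of the transcript Tpm3-201, which has 8 exons and 2230 bases, at 99.1% identity, with 13 substitutions and 6 gap bases. The whole coding part of 747 bases was matched with 3 substitutions, all in exon 1. The longest run without a difference was 624 bases, and 49.9% of all windows of 100 columns were identical. Of the exonic bases in the coding transcripts of *Tpm3*, 58.4% had a match in the copy, since the gene has exons of other isoforms that the copy lacks.

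The places in the coding part of this transcript where *Tpm3* and *Tpm3-rs7* differ, and where alone a read within it can tell them apart, are shown here as 25 bases each, with the differing base in capitals. Positions are counted from 1 at the 5′ end of Tpm3-201, and the windows lie at chr3:90079791-90079815, chr3:90079817-90079841 and, across an exon junction, chr3:90079846-90086452.
Tpm3, G264A: agctgatgatgcGgaggaaagggcc
Tpm3-rs7, G264A: agctgatgatgcAgaggaaagggcc
Tpm3, G290A: agcgcctccagcGggaagtggaggg
Tpm3-rs7, G290A: agcgcctccagcAggaagtggaggg
Tpm3, G319A: aggcgggcccggGagcaggctgaag
Tpm3-rs7, G319A: aggcgggcccggAagcaggctgaag

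*Capza1* (ENSMUSG00000070372) lies at chr3:104822779-104864505 on the minus strand, and *Capza1-ps1* (ENSMUSG00000067017, Gm3608 in GENCODE M21) at chr1:105455971-105458829 on the plus strand, where it is annotated as a pseudogene. The copy matched 2859 alignment columns of Capza1-201, which has 10 exons and 3193 bases, at 99.5% identity, with 8 substitutions and 5 gap bases. In the coding part of 861 bases there were 3 substitutions, in exons 7, 9 and 10, and 1 gap base. The longest run without a difference was 583 bases, 67.5% of the windows of 100 columns were identical, and 89.4% of the exonic bases of *Capza1* had a match in the copy. The 3 coding substitutions are shown in the same way, counted from the 5′ end of Capza1-201, and lie on the minus strand at chr3:104834128-104834152, chr3:104825451-104828532 (across an exon junction) and chr3:104825073-104825097.
Capza1, T670C: gaagttcaccatTacaccaccttca
Capza1-ps1, T670C: gaagttcaccatCacaccaccttca
Capza1, A791G: gtttctaatgaaAtccaaactacca
Capza1-ps1, A791G: gtttctaatgaaGtccaaactacca
Capza1, A887G: atgtcagacaccAcgttcaaggcct
Capza1-ps1, A887G: atgtcagacaccGcgttcaaggcct

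**Figure D1:**
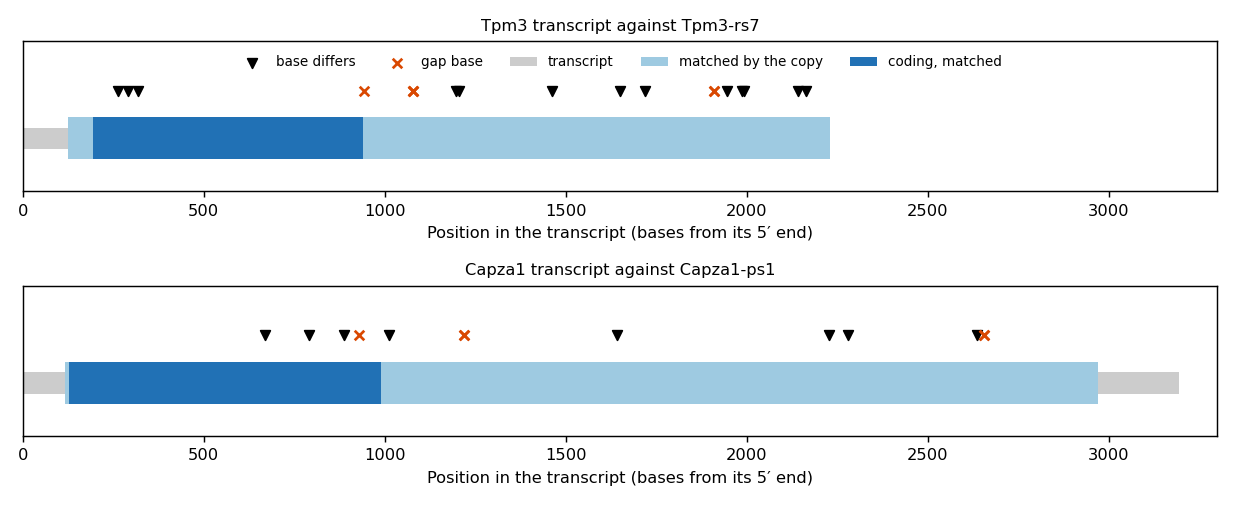
Position along the transcript, in bases from its 5′ end, of each base that differs (triangles) and each gap base (crosses) between Tpm3-201 and *Tpm3-rs7* (top) and between Capza1-201 and *Capza1-ps1* (bottom). Light blue is the stretch matched by the copy and dark blue its coding part, in which each pair has 3 substitutions.

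*Cap1* (ENSMUSG00000028656, chr4:122859047-122886056, minus strand) went against the description of the genes as having near-identical copies. No other annotated transcript matched it over 200 bases at 90% identity or more. The closest, the processed pseudogene *Gm4817*, matched 1424 columns at 86.1% and was at most at 0.255 CPM in a library. Beside the named copies, *Tpm3* had 4 other copies at 90% or more and *Capza1* had 2, and those in the value table were at most at 0.222 and 0.883 CPM. How reads that fit gene and copy equally well were counted is not given in the sources used here, so the values of gene and copy are uncertain one by one, and their sum is given below as well.

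*Tpm3* was low in every cKO library and its copy was high. *Tpm3* was at 554, 579, 531 and 555 CPM in Ctrl CL and at 554, 604, 538 and 569 CPM in Ctrl IL, for mice 3541, 3545, 3546 and 3551. It was at 149.9, 142 and 139.8 CPM in cKO CL (mice 788, 791 and 3592) and at 129, 123 and 139 CPM in cKO IL (mice 784, 791 and 3592). All 6 cKO libraries lay below all 8 Ctrl libraries. On the log2(CPM + 1) scale the difference, cKO minus Ctrl, was -2.10 (SE 0.14) in IL and -1.95 (SE 0.16) in CL. Here and for the other 4 genes the genotype difference is a description with no test, because it chose the genes.

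*Tpm3-rs7* was at 304, 300.2, 238 and 266 CPM in Ctrl CL and at 296, 300.3, 295 and 269 CPM in Ctrl IL. In cKO it was at 684, 676 and 675 CPM in CL and at 729.9, 728 and 702 CPM in IL. Each cKO library was thus above each Ctrl library, in the direction opposite to that of the gene. The difference was 1.32 (SE 0.14) on the log2 scale in IL and 1.29 (SE 0.19) in CL.

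*Capza1* and its copy were split in the same way. *Capza1* was at 363, 373, 309 and 294 CPM in Ctrl CL and at 402, 391, 392 and 348 CPM in Ctrl IL. It was at 91.3, 109 and 91.1 CPM in cKO CL and at 116, 117 and 127 CPM in cKO IL. The log2 difference was -1.65 (SE 0.14) in IL and -1.78 (SE 0.19) in CL, again without overlap. Its exons share 166 bases with those of *St7l* on the other strand (17.2 to 42.2 CPM), and whether the counting used strand is not given in the sources used here.

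*Capza1-ps1* was at 146, 146, 119 and 129.7 CPM in Ctrl CL and at 148, 149, 152 and 127 CPM in Ctrl IL. It was at 280.2, 313 and 284 CPM in cKO CL and at 354, 362 and 367 CPM in cKO IL. Each cKO library was above each Ctrl library, with a log2 difference of 1.34 (SE 0.14) in IL and 1.11 (SE 0.18) in CL.

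*Cap1*, the gene without such a copy, had the largest genotype difference of the 5. It was at 85.7, 86.0, 76.8 and 76.9 CPM in Ctrl CL and at 89.4, 91.4, 112 and 93.8 CPM in Ctrl IL. It was at 641, 765 and 634 CPM in cKO CL and at 742, 807 and 760.4 CPM in cKO IL, 8.35 times the Ctrl mean in CL and 7.97 times in IL. The log2 difference was 3.00 (SE 0.11) in IL and 3.04 (SE 0.17) in CL. Its exons share 129 bases with those of *Ppt1* on the other strand, which was at 352 to 528 CPM.

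All 5 genes were without overlap between genotypes in both hemispheres. Of all genes tested, 10.3% were so in IL and 10% in CL, and nothing is read from the count, since the genes were chosen on this contrast. At the estimated depth, the lowest of these values was worth 1237 reads (*Cap1* in a Ctrl CL library).

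**Figure D2:**
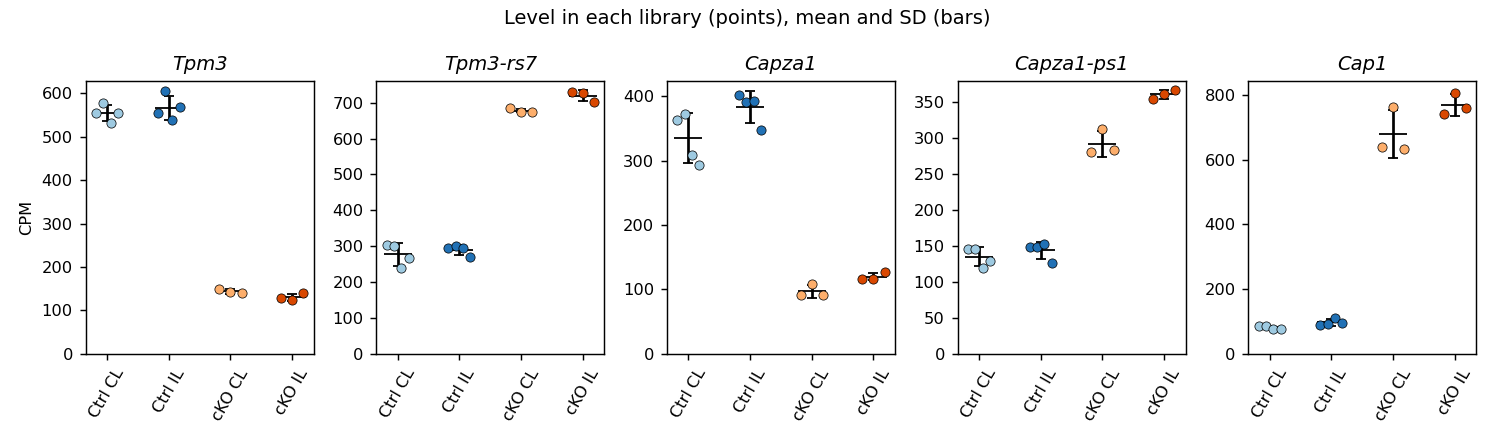
CPM of each of the 5 genes in every library (points), with the mean and SD of each group (bars). *Tpm3* and *Capza1* are lower, and *Tpm3-rs7*, *Capza1-ps1* and *Cap1* higher, in every cKO library than in every Ctrl library.

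When gene and copy were added, the *Tpm3* pair no longer separated the genotypes. The sum was at 858, 879, 769.6 and 820.4 CPM in Ctrl CL against 834, 817 and 815 CPM in cKO CL. It was at 850.3, 905, 833 and 838 CPM in Ctrl IL against 859, 851 and 841 CPM in cKO IL. The libraries overlapped in both hemispheres, and the mean sum of cKO differed from that of Ctrl by -1.16% in CL and by -0.697% in IL. On the log2 scale the difference of the sum was -0.02 (SE 0.04) in CL and -0.01 (SE 0.03) in IL. The means of cKO and Ctrl in CL differed by -411 CPM for *Tpm3* and by 401 CPM for *Tpm3-rs7*, and those in IL by -436 and 430.1 CPM.

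The *Capza1* pair kept a part of the difference. Its sum was at 509, 518, 429 and 423 CPM in Ctrl CL against 372, 422 and 375 CPM in cKO CL, where the highest cKO library was just below the lowest Ctrl library. It was at 551, 539.7, 545 and 475 CPM in Ctrl IL against 470.5, 479 and 493 CPM in cKO IL, and there the groups overlapped. The mean sum of cKO differed from that of Ctrl by -17.1% in CL and by -8.83% in IL, a log2 difference of -0.27 (SE 0.10) and -0.13 (SE 0.05). These differences too are a description, since the parts of the sum were chosen on them.

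**Figure D3:**
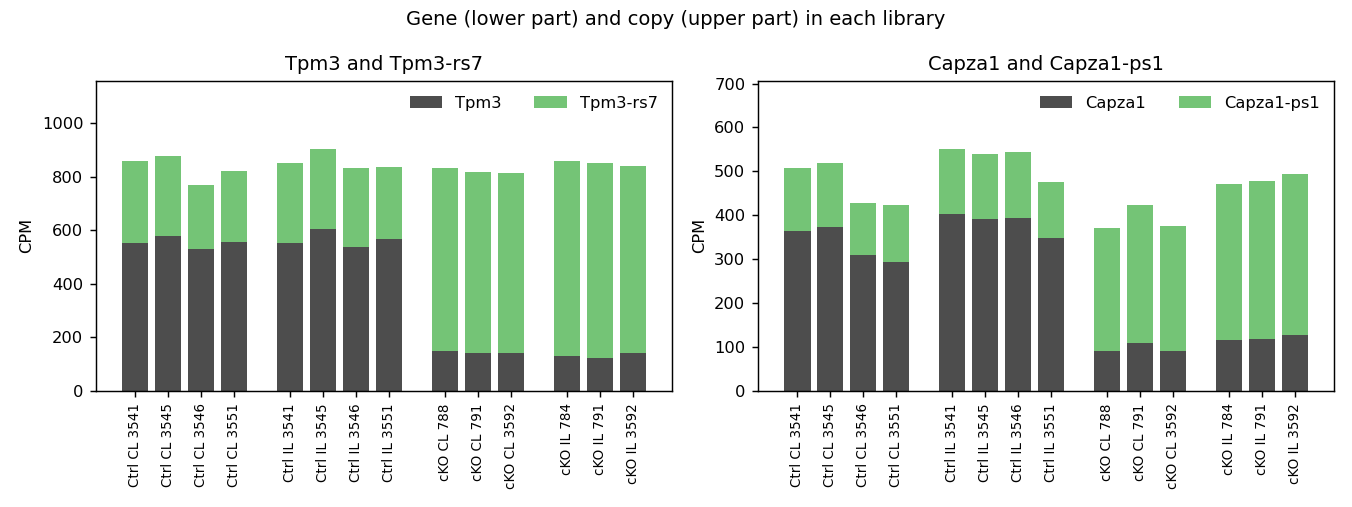
CPM of the gene (dark, lower part) and of its copy (green, upper part) stacked for every library, labelled by group and mouse number. The *Tpm3* sums lie between 769.6 and 905 CPM in all 14 libraries, while the part that is *Tpm3-rs7* is the larger one only in cKO; the *Capza1* sums are lower in cKO CL.

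The copy's share of the sum is a share of reads and needs no scaling between libraries. *Tpm3-rs7* held 33.2% ± 1.98 (SD, n = 4) of the sum in Ctrl CL and 33.9% ± 1.5 (SD, n = 4) in Ctrl IL. It held 82.5% ± 0.430 (SD, n = 3) in cKO CL and 84.7% ± 1.09 (SD, n = 3) in cKO IL. *Capza1-ps1* held 28.8% ± 1.28 (SD, n = 4), 27.3% ± 0.567 (SD, n = 4), 75.1% ± 0.772 (SD, n = 3) and 75.1% ± 0.685 (SD, n = 3) in the same groups. Within a genotype the libraries thus differed by few percentage points and overlapped between hemispheres except for *Tpm3-rs7* in cKO, while the genotypes did not overlap.

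Other genes with copies of high identity were looked at after these values had been seen. Among 340 pairs of a coding gene with a pseudogene or retrogene that matched over at least 500 bases at 98% or more, from 271 genes and with at least 10 CPM of gene plus copy in every library, 13 (3.82%) had copy shares that did not overlap between genotypes and differed in the same direction in both hemispheres. The copy's share was higher in cKO in 11 of them and lower in 2. The *Tpm3* and *Capza1* pairs were chosen on the genotype contrast, gene against copy, so their place among the pairs is a description that the choice fixes in part. By the smaller of the CL and IL differences the *Tpm3* pair, at 49.3 percentage points, came first and the *Capza1* pair, at 46.4, came second. The next of all pairs was *Gapdh* with *Gm13394* at 39.3 points, whose shares overlapped between genotypes in IL, and the next of the 13 was *Gon4l* with *5830417I10Rik*, where the copy's share differed by -32.9 points in CL and -40.8 points in IL. The median difference over all 340 pairs was 0.163 points in IL and -0.00318 points in CL. Pairs of 1 gene with several copies share its reads.

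**Figure D4:**
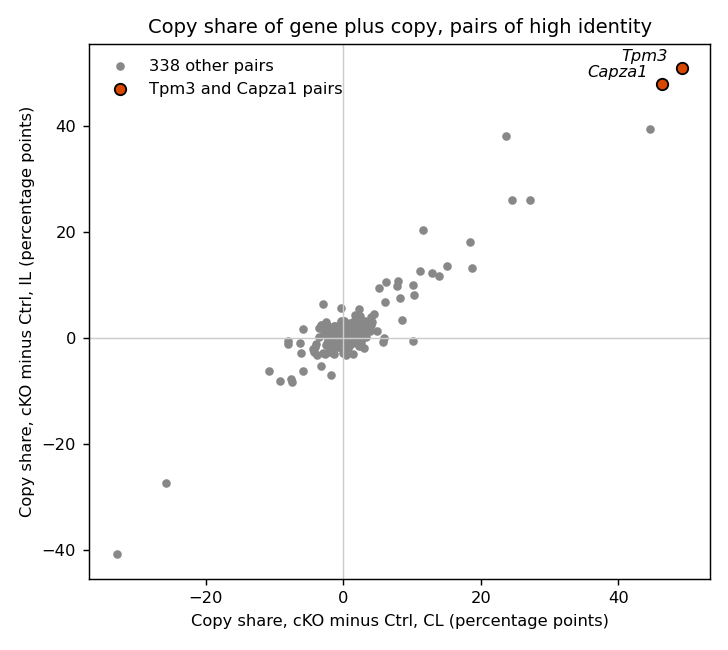
Difference in the copy's share of gene plus copy, cKO minus Ctrl in percentage points, in CL (horizontal) and IL (vertical), for 340 pairs of high identity. The *Tpm3* and *Capza1* pairs (orange) were chosen on this contrast and lie at the upper right end; most of the other 338 pairs (grey) lie near 0.

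Between hemispheres, which of the 5 genes passed the test differed between the fits without and with the mouse as a block. Without it *Capza1* and *Capza1-ps1* were called higher in IL of cKO and no gene in Ctrl, and with the mouse as a block *Capza1* was called higher in Ctrl and no gene in cKO. This contrast did not choose the genes. In cKO, *Capza1* was 0.39 higher in IL than in CL on the log2 scale (SE 0.10, limma adjusted p = 0.0228) and *Capza1-ps1* 0.39 higher (SE 0.10, limma adjusted p = 0.0243). The 2 of 5 genes called, both higher, stand beside 22.4% of all genes called and 12.8% called higher. In cKO 4 of the 5 genes, all except *Cap1*, were without overlap between hemispheres, *Tpm3* lower and the others higher in IL, as were 42.4% of all genes. In cKO the fit with the mouse as a block kept only the 4 libraries of the 2 mice with both hemispheres. The block and the smaller set of libraries cannot be told apart there. Both calls were lost with the block (limma adjusted p = 0.0838 and 0.0927) and in the fit of all 14 libraries (limma adjusted p = 0.189 and 0.164). They were also lost without cKO CL mouse 788 (limma adjusted p = 0.0640 and 0.0674), without cKO IL mouse 784 (0.0740 and 0.0863) and without cKO IL mouse 791 (0.0822 and 0.0890), while without cKO IL mouse 3592 *Capza1* was lost (0.0563) and without cKO CL mouse 3592 *Capza1-ps1* was lost (0.0527).

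In Ctrl, limma called 0 of the 5 genes at an adjusted p of 0.05, and 0 had an unadjusted p under 0.05, beside 6.58% of all genes called and 21.1% with an unadjusted p under 0.05. *Capza1* was higher in IL in 4 of 4 mice, with IL to CL ratios of 1.05 to 1.27, and was 0.27 higher on the log2 scale (SE 0.20, limma adjusted p = 0.496), which passed with the mouse as a block (SE 0.08, limma adjusted p = 0.0484). Leaving out 1 library gave *Capza1* differences of 0.16 (without IL mouse 3541) to 0.39 on the log2 scale (without CL mouse 3545), none of which passed the unblocked test. *Cap1* was also higher in IL in 4 of 4 mice and was the 1 gene of the 5 without overlap, beside 17.7% of all genes, but its difference of 0.31 on the log2 scale (SE 0.15) did not pass (limma adjusted p = 0.285, and 0.0535 with the mouse as a block). *Tpm3* had ratios of 1.001 to 1.04 in the Ctrl mice and was 0.10 higher on the log2 scale (SE 0.17, limma adjusted p = 0.810), or -0.0023 without IL mouse 3545.

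The genotype differences were not shown to depend on the hemisphere. The interaction was between -0.15 (*Tpm3*, SE 0.20) and 0.23 (*Capza1-ps1*, SE 0.22) on the log2 scale, each with a limma adjusted p of 0.9999. Of 18475 genes, limma called 0 in this comparison (0%), and 481 had an unadjusted p under 0.05. With the mouse as a block it called 3, none of them one of the 5 genes.

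Sums and shares were compared between hemispheres with 8 two-sided exact permutation tests. None passed after Benjamini-Hochberg adjustment, with adjusted p values from 0.2 to 0.8. With 3 against 3 libraries the smallest p is 0.1 and with 4 against 4 it is 0.0286, so that over these 8 tests no adjusted p could reach 0.05 in either genotype, and that none passed says nothing about the differences. The *Capza1* sum was 91.4 CPM higher in cKO IL than in cKO CL (exact permutation p = 0.1, adjusted 0.2) and 57.8 CPM higher in Ctrl IL than in Ctrl CL (exact permutation p = 0.171, adjusted 0.274), higher in IL in 6 of the 6 mice with both. The *Tpm3* sum was 28.3 CPM higher in cKO IL and 24.7 CPM higher in Ctrl IL, and after further scaling of the libraries these became 94.8 and 79.0 CPM, and those of the *Capza1* sum 126 and 87.6 CPM. The Ctrl difference of the *Tpm3* sum was 3.94 CPM without CL mouse 3546, 8.59 CPM without IL mouse 3545 and 40.5 CPM without CL mouse 3545. The share of *Capza1-ps1* was 1.49 percentage points lower in Ctrl IL than in Ctrl CL (exact permutation p = 0.0571, adjusted 0.2), or -0.87 points without CL mouse 3551, and that of *Tpm3-rs7* was 2.15 points higher in cKO IL without overlap (exact permutation p = 0.1, adjusted 0.2).

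The rest of the actin machinery was taken from a list of 110 other genes, of which 105 were tested in IL and 106 in CL. Between genotypes limma called 1 of them in each hemisphere, *Eps8*, which encodes a protein that caps and bundles filaments and was higher in cKO. Of all genes, 0.658% were called in IL and 0.875% in CL, and 0.356% and 0.465% were called higher. *Eps8* was at 37.4 ± 7.34 CPM (SD, n = 4) in Ctrl IL and 60.3 ± 2.20 CPM (SD, n = 3) in cKO IL, which is 0.71 higher on the log2 scale (SE 0.11, limma adjusted p = 0.0373), and it was 1.10 higher in CL (SE 0.16, limma adjusted p = 0.00760). The call in IL was lost when any 1 IL library other than that of Ctrl mouse 3546 was left out, on the deposited CPM, with upper-quartile scaling and with no filter, and that in CL was lost without cKO mouse 791. The median log2 fold change of the list was 0.02 in IL and -0.05 in CL, against 0.01 and -0.06 for all genes.

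The closest relatives of the 5 genes gave no call between genotypes. The other tropomyosins had log2 differences in IL of -0.32 (*Tpm1*, SE 0.14, limma adjusted p = 0.546), -0.37 (*Tpm2*, SE 0.28, limma adjusted p = 0.819) and -0.24 (*Tpm4*, SE 0.13, limma adjusted p = 0.711). Of the other capping protein subunits, *Capza2* was at 963 ± 54.7 CPM (SD, n = 4) in Ctrl IL and 1071 ± 43.8 CPM (SD, n = 3) in cKO IL, and *Capzb*, the beta subunit, at 425 ± 96.1 CPM (SD, n = 4) and 410.0 ± 68.6 CPM (SD, n = 3). *Cap2*, the relative of *Cap1*, was under 1 CPM in the mean of each group. *Cfl1*, which encodes cofilin, and the actins *Actb* and *Actg1* had log2 differences of -0.05 (SE 0.24), 0.28 (SE 0.19) and 0.07 (SE 0.14) in IL, with limma adjusted p values of 0.984, 0.786 and 0.958.

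Between hemispheres, many of the other actin genes moved. In Ctrl, limma called 13 of 105 higher and 2 lower in IL, 14.3% of the list. Of all genes 6.58% were called, 3.63% higher and 2.96% lower. In cKO, 31 of 106 were higher and 10 lower, 38.7% of the list, beside 22.4% of all genes, with 12.8% higher and 9.52% lower. With the mouse as a block the counts were 40 in Ctrl and 22 in cKO, beside 20.5% and 13.5% of all genes in the same fits. In cKO the block fit used 4 libraries, against 6 without the block. The count in Ctrl was 7, 7 and 8 without the IL library of mouse 3541, 3545 or 3551, and that in cKO was 27 without CL mouse 788, and 23, 25 and 27 without IL mouse 784, 791 or 3592. The median log2 fold change of the list was 0.16 in Ctrl and 0.18 in cKO, against -0.04 and 0.02 for all genes. Over all genes, the called ones were 594 higher and 484 lower in Ctrl and 2150 higher and 1596 lower in cKO, which on the deposited CPM became 625 and 814, and 1647 and 2146. The microglial marker sum was lower in IL by the ranges given above. Of the other marker sums without overlap between hemispheres in Ctrl, that of astrocytes was higher in IL (26.4 to 35.2 CPM in CL and 41.4 to 79.5 CPM in IL), and those of T and NK cells (8.40 to 17.6 and 3.93 to 5.35 CPM) and B cells (28.9 to 43.4 and 19.9 to 28.1 CPM) were lower. In cKO the sums of smooth muscle cells and pericytes (42.9 to 70.5 CPM in CL and 22.03 to 35.8 CPM in IL), neutrophils (583 to 1638 and 231 to 358 CPM) and B cells (24.7 to 25.7 and 16.1 to 21.1 CPM) were lower in IL without overlap. The part of these cells in the differences was not tested.

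The Arp2/3 complex, which starts branched filaments, with the gene of its inhibitor *Arpin*, had 8 of 10 genes called higher in cKO, beside 12.8% of all genes, and 2 of 10 in Ctrl, beside 3.63%. With the mouse as a block it had 4 of 10 higher in cKO, beside 8.69% of all genes, and 5 of 10 in Ctrl, beside 9.81%. Of capping protein subunits and regulators, *Capzb* among them, 3 of 11 were higher in Ctrl and 4 of 12 higher and 1 lower in cKO, where 9.52% of all genes were lower. With the block 6 of 11 were higher and 1 lower in Ctrl, where 10.7% of all genes were lower, and 3 of 12 were higher in cKO. *Capzb* was called in cKO (log2 fold change 0.54, SE 0.14, limma adjusted p = 0.0246) and not in Ctrl (0.44, SE 0.28, limma adjusted p = 0.422), and the same held for *Cfl1*, at 0.58 (SE 0.12, limma adjusted p = 0.0118) and 0.55 (SE 0.26, limma adjusted p = 0.269). With the block both genes were called in Ctrl (limma adjusted p = 0.0160 for *Capzb* and 0.0107 for *Cfl1*) and neither in cKO (0.117 and 0.0731). *Tpm4* was called in both, with a mean of 201 ± 40.05 CPM (SD, n = 4) in Ctrl CL and 385 ± 9.11 CPM (SD, n = 4) in Ctrl IL.

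On the log2(CPM + 1) scale, which understates the change of low genes, the largest increases in IL of Ctrl were those of *Iqgap1*, a scaffold that links filaments (log2 fold change 1.99, SE 0.25), *Capg*, a capping protein of macrophages (1.62, SE 0.28), *Ezr*, the membrane linker ezrin (1.61, SE 0.22) and *Gsn*, the severing protein gelsolin (1.60, SE 0.29), with limma adjusted p values of 0.00194, 0.00964, 0.00267 and 0.0122. *Tmod1*, which caps the slow-growing end of the filament, fell by 1.39 (SE 0.27, limma adjusted p = 0.0145) and *Abi3*, a member of the WAVE complex, fell by 0.57 (SE 0.14, limma adjusted p = 0.0434). In cKO the largest increases on the same scale were *Iqgap1* (1.87), *Ezr* (1.83), *Gsn* (1.44) and the formin *Inf2* (1.25), and the largest decreases were *Tmod1* (-1.09), the myosin light chain gene *Myl9* (-1.04), the cofilin phosphatase gene *Ssh2* (-0.92) and *Fscn1*, which encodes fascin (-0.80). With the block *Myl9* and *Fscn1* were not called in cKO (limma adjusted p = 0.0723 and 0.0586) but were called lower in Ctrl, with log2 fold changes of -1.15 (limma adjusted p = 0.00759) and -0.59 (limma adjusted p = 0.0301), as was *Ssh2* (-0.45, limma adjusted p = 0.0263). The order depended on the scale. Ratios of mean CPM, IL to CL, were compared among the genes called without the block. *Inf2* was at 3.65 in Ctrl, second to *Iqgap1* (3.67), and at 3.87 in cKO, above *Iqgap1* (3.397). The means of *Inf2* in CL were 0.892 and 0.852 CPM. *Scin* was not called in Ctrl without the block, so it is outside this order. It was at 0.220 CPM in Ctrl CL and 0.837 CPM in Ctrl IL, and was called with the block (limma adjusted p = 0.0163). Chosen after their values were seen, 2 other low genes also moved up by the ratio of mean CPM in cKO, *Scin* (3.20) among the increases and *Lmod1* (0.259) as the lowest ratio. With the block neither of these was called in cKO (limma adjusted p = 0.0676 and 0.146). With the block in cKO, *Inf2* (1.40) and *Capg* (1.29) were above *Gsn* (1.28) on the log2 scale. The smooth muscle and pericyte marker sum, lower in cKO IL as given above, is of cells that also express *Myl9*. In Ctrl, where *Myl9* was called lower with the block, that sum overlapped between hemispheres. The part of these cells in the *Myl9* values was not tested. None of the genes of the list had a called interaction of genotype and hemisphere (0 of 109).

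**Figure D5:**
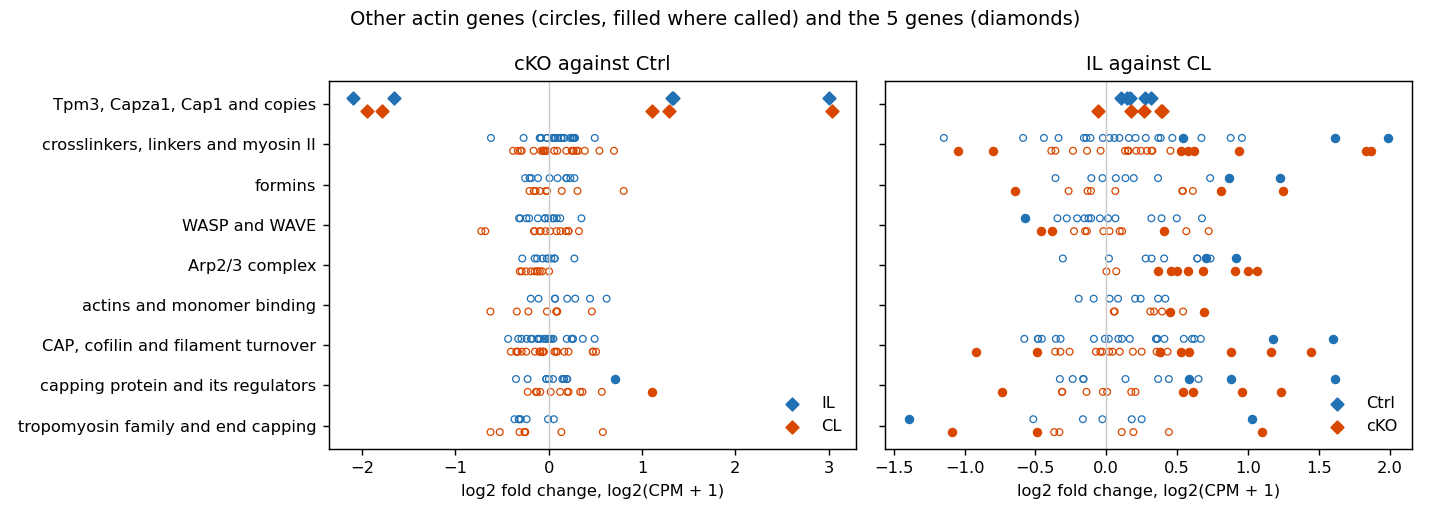
log2 fold change on the log2(CPM + 1) scale of the other actin genes by role (circles, filled where called) and of *Tpm3*, *Tpm3-rs7*, *Capza1*, *Capza1-ps1* and *Cap1* (diamonds), for cKO against Ctrl (left, IL blue and CL orange) and IL against CL (right, Ctrl blue and cKO orange). On the left *Eps8* is the filled circle in each hemisphere and, at 1.10 in CL, lies just below the lowest of the positive diamonds (*Capza1-ps1* in CL, 1.11); on the right, filled circles occur in most roles.

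The genes with the pattern most like each of the 5 over the 14 libraries were found among 9753 genes, by the root mean square difference of log2 values after the mean of each gene was removed. They share the libraries, so this is a description. *Tpm3-rs7* and *Capza1-ps1* were nearest to each other, at 0.0973, and next to both was *Fcgr1* (0.211 and 0.172), which encodes an Fc receptor. After it came *Bckdhb* (0.251) for *Tpm3-rs7* and *Ak1* (0.243) for *Capza1-ps1*. *Tpm3* was nearest to *Capza1* (0.246), then *Ctsh* (0.348), which encodes cathepsin H, and *Zdhhc14* (0.405). *Capza1* was nearest to *Ctsh* (0.151), before *Tpm3* and *Cyb5r4* (0.255). *Cap1* was nearest to *Tmem87a* (0.350), *Gatm* (0.433) and *Wdfy1* (0.434).

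The neighbours of the 5 genes were looked at after the values had been seen. Within 1 Mb, limma called 0 genes between genotypes in either hemisphere, among 62 tested near *Tpm3* in IL, 29 near *Capza1*, 13 near *Cap1* and 10 near *Capza1-ps1*, and no gene near *Tpm3-rs7* was tested. With 0.658% of all genes called in IL and 0.875% in CL, a count of 0 among so few genes is near the background. Genes farther than 1 Mb away were not counted, so nothing is said of larger regions.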

How the data were processed

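The authors mapped the paired-end reads of Smart Seq v4 libraries with STAR to mm10 in Partek Flow 8.0, per the labels and the methods. The deposited values are CPM, since each library sums to 1e+06, although their name is raw counts. Depth was estimated from the step between low values. At that depth, between 79.0% and 83.5% of the low values were whole reads within 0.03, so no count model was used and limma took its place. Read length, strand and the counting of reads with several matches are not given in the sources used here. The level of the deleted gene is not reported here. The authors' own comparison tables (p-value, FDR, ratio, fold change and group means) were used only for the name of *Capza1-ps1*, which they pair with its identifier, and none of their values was used.

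Genes were named from GENCODE M21 (33802 of 33939 identifiers). Values were divided by trimmed-mean factors (30% and 5% trimmed), and log2(CPM + 1) was fitted with limma 3.58.1 in R 4.3.3. Genes entered with the CPM of 10 reads at median depth in as many libraries as the smaller group held and 15 reads in total. Calls needed a Benjamini-Hochberg adjusted p of 0.05 or less and a fold of at least 1.2. The fits were tested on simulated data. Sums and shares used the deposited CPM and exact permutation tests in scipy 1.17.1. Transcripts were matched with BLAST 2.17.0.

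The genes and lists were chosen with earlier results of these data known. Named genes were the 5 genes, their copies, 9 relatives, up to 4 called genes of the list in each direction and the 3 nearest patterns for each. Marker lists were read as summed CPM. Mouse numbers are in the labels, so same-numbered libraries are from the same mouse and are paired. The deviations of their libraries from the group means had correlations of 0.182 to 0.608 in the 6 mice with both hemispheres and -0.536 to 0.503 between libraries of different mice, ranges that overlap. Alternatives were pseudocounts of 0.5 and 0.1, no further, upper-quartile or median-ratio scaling, other filters, all 14 libraries, the mouse as a block, the adjusted p alone and leaving out each library. In the tests of IL against CL, the block kept only mice with both hemispheres. The paired tests of sums and shares, the survey of other pairs and the neighbours were added after seeing the data. Whether the samples of a group are from separate litters is not given, so p values measure the spread between these mice.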

Additional observations from a re-analysis of the deposited data

Results flagged for a closer look

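Of 18 groups of 4 Ctrl libraries checked for a library apart, for the 5 genes and for the sums and shares of both pairs, 2 had one, and both came from the same library. *Capza1-ps1* was at 127 CPM in the Ctrl IL library of mouse 3551, against 148 to 152 CPM in the other Ctrl IL libraries. The sum of *Capza1* and *Capza1-ps1* was at 475 CPM in that library, the lowest of its group. Chance gives such a value in about 1 of 20 groups. The share of *Capza1-ps1* in this library, 26.7%, was the lowest of its group but not apart.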

How the results depend on the processing

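The genotype differences of the 5 genes kept their direction in every setting tried. The difference of *Tpm3* in CL was -1.87 with upper-quartile scaling. Leaving out each library gave -2.19 to -2.02 for *Tpm3* in IL, 1.26 to 1.39 for *Tpm3-rs7* in IL and -2.01 to -1.89 for *Tpm3* in CL. Each of these values stayed within the SE given above for its difference. The log2 difference of the *Tpm3* sum in IL was 0.00228 with further scaling, against -0.01 (SE 0.03) without it.

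The count of other actin genes called between genotypes in IL was 0 on the deposited CPM, with upper-quartile scaling and with no filter, and 0 to 1 leaving out each library. In CL it was 2 in the fit of all 14 libraries and with the mouse as a replicate block in it, and 0 to 1 leaving out each library. Between hemispheres the count in Ctrl was 9 with no filter, 26 with all 14 libraries, 40 with the mouse as a replicate block and 7 to 16 leaving out each library. In cKO it was 16 with all 14 libraries, 22 with the block and 23 to 39 leaving out each library.

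Of the hemisphere differences of the 5 genes, *Capza1* in Ctrl passed the test with the block (0.27). In cKO *Capza1* lost the test on the deposited CPM (0.31), with all 14 libraries (0.42) and with the block (0.39), and ranged from 0.34 to 0.47 leaving out each library. *Capza1-ps1* lost it with no filter (0.39), with all 14 libraries (0.42) and with the block (0.39), and ranged from 0.34 to 0.44. The block changed no other call of the 5 genes, and the causes were not tested. Groups of 3 and 4 libraries and reads that gene and copy cannot tell apart limit what these values show.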
